A study of Mus musculus with 72 samples.

Results

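The comparison described here is the response of transgenic PLZF/RARA leukaemia to retinoic acid (RA) after 6 h. It was drawn from a series of 72 Affymetrix Mouse Gene 1.0 ST arrays of mouse acute promyelocytic leukaemia, and 8 of the 72 arrays belong to it. They were chosen by their labels, namely model transgenics, fusion protein PLZF/RARA and bone marrow tissue. The RA group held 4 arrays labelled retinoic acid and 6 h. The untreated group held 4 arrays, 2 labelled 6 h and 2 labelled 12 h, which were pooled as 1 control group. Replicate numbers given here count the arrays of a group in the order of the series and are not labels of the submitters. All 8 arrays carry the background label WT and the label batch 1. All 8 thus share the model label transgenics and the fusion protein label PLZF/RARA, and none is labelled as a leukaemia-free control. Whether each sampled mouse itself carried the transgene is not stated by these labels. The promoter that drives the transgene, the mouse strain, the age of the mice and the dose and route of RA are not given in the sources used. Nor do the labels tell whether each array stands for its own animal or leukaemia, so the p-values measure a spread between arrays, which may be technical. Gene tests took this spread from all 36 transgenic arrays of the series and not from the 8 alone, unless another fit is named.

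RA is the ligand of the retinoic acid receptors, transcription factors that bind DNA with a retinoid X receptor partner. Without ligand they recruit corepressors to their target genes, and with ligand they exchange them for coactivators. In acute promyelocytic leukaemia a fusion of the receptor RARA blocks granulocyte development at the promyelocyte stage. The PML/RARA fusion is released from its corepressors by pharmacological RA, whereas the PLZF part of PLZF/RARA binds corepressors of its own, and patients with this fusion are known to respond poorly to RA. The comparison asks which genes nevertheless change within the first hours.

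The values are log2 intensities as deposited, normalized by the authors. Over the 19938 genes, the median of an array lay between 6.86 and 7.07 among the 8 arrays, and their pairwise correlations between 0.986 and 0.997. The arrays did not form 1 homogeneous set. The first probe set of the deposited table, which has no gene in the annotation, was high in RA replicates 2 and 4 and in 3 of the 4 untreated arrays, at 12.44 to 12.59. It was low in RA replicates 1 and 3 and in the 12 h untreated replicate 1, at 11.72 to 11.99. The same arrays lay apart on the first principal component of the 12 PLZF/RARA arrays (29.4% of the variance), with RA replicate 1 farthest out. RA and untreated arrays were found on both sides, and the level of this probe set differed between them by -0.03 (exact two-sided permutation test over 70 splits, p = 1, smallest possible p = 0.0286). What the split stands for was not tested. For some of the named genes, the response is therefore also given within the high arrays (2 RA, 3 untreated) and the low arrays (2 RA, 1 untreated). In whole bone marrow, a fall in the share of a cell type and a fall in RNA per cell cannot be told apart.

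After 6 h of RA, 482 genes were higher and 225 lower than in untreated arrays (limma, Benjamini-Hochberg adjusted p below 0.05), or 3.55% of the 19938 genes tested. Of these, 187 rose and 73 fell by at least 1.5-fold, or 1.3% of all genes. The RA and untreated values did not overlap for 521 of the 707 genes (365 higher and 156 lower), against 1141 of all genes, or 5.72% (3.59% with RA higher and 2.13% with RA lower). The share of rises among the calls was 68.2% on the deposited values (482 up and 225 down), 54.1% after another quantile normalization (413 up and 350 down) and 57.5% with arrays centred on their median (385 up and 284 down). Without 6 h untreated replicate 1, 450 genes passed, and without 12 h untreated replicate 2, 452 passed. A fit of the 8 arrays alone gave 167 genes, and 600 with the high and low arrays as a block, an alternative chosen after seeing the data.

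**Figure D1:**
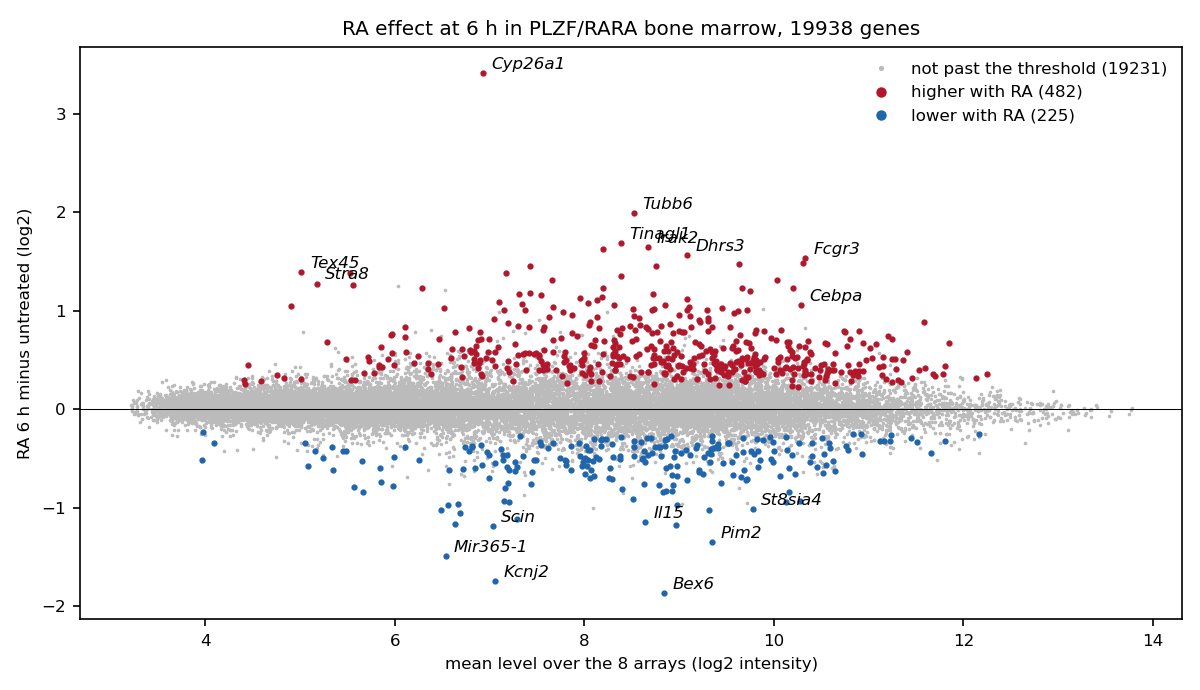
Each point is 1 gene, with its mean log2 intensity over the 8 arrays on the x axis and the log2 difference of RA 6 h minus untreated on the y axis; red and blue mark genes past adjusted p 0.05. The 482 rises and 225 falls lie over most of the range of levels, and Cyp26a1 stands apart at 3.41.

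Genes that bind, degrade or respond to RA held the largest single change. Cyp26a1, the cytochrome P450 that degrades RA and a classical RA target, had 8.90, 8.31, 8.36 and 8.98 log2 units in RA arrays, against 5.15, 5.40, 5.29 and 5.05 in untreated arrays. All 4 RA arrays were high and the groups were more than 2 log2 units apart. The change was 3.41 ± 0.60 (SE, adjusted p = 0.000383), or 10.7-fold, and it was 3.44 within the high arrays and 3.34 within the low arrays. Dhrs3, which reduces retinal to retinol, had 9.61, 10.00, 9.37 and 10.49 in RA arrays, against 8.55, 8.46, 7.77 and 8.42 in untreated arrays. It rose by 1.57 ± 0.22 (adjusted p = 1.51e-05), so that both an enzyme that destroys RA and one that lowers its precursor were higher. Tgm2, tissue transglutaminase, rose by 1.16 ± 0.19 (adjusted p = 0.000221), with 7.96 to 8.40 in RA arrays and 6.64 to 7.35 in untreated arrays.

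Stra8, a gene best known for RA-driven entry of germ cells into meiosis, rose by 1.28 ± 0.21 (adjusted p = 0.000191). Its untreated values were 4.52, 4.48, 4.61 and 4.55, among the low levels of these arrays, and its RA values were 5.84, 5.75, 5.14 and 6.52. The RA values spread widely but all lay above the untreated ones. Of the receptors themselves, Rarb rose by 0.43 ± 0.10 (adjusted p = 0.0076) and Rarg by 0.55 ± 0.16 (adjusted p = 0.0384). Rarb had 6.46, 5.85, 5.93 and 5.97 in RA arrays, against 5.65, 5.55, 5.73 and 5.55 in untreated arrays, and without RA replicate 1, the highest, its change was 0.30 (adjusted p = 0.0689). Rarg did not pass without 6 of the 8 arrays taken singly (RA replicates 1, 3 or 4, 6 h untreated replicate 1, or either 12 h untreated array), with changes of 0.48 to 0.59 and adjusted p of 0.0584 to 0.107. Rara, the receptor gene whose human counterpart forms the fusion, had a difference of -0.37 ± 0.11 and missed the threshold (adjusted p = 0.0501). It passed as lower in 10 of 24 alternative fits, over which its change ran from -0.51 to -0.02. Zbtb16, the mouse gene of PLZF, had a difference of 0.17 ± 0.17 (adjusted p = 0.732). Whether the probe sets of Rara and Zbtb16 also read the transgene was not tested.

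Of 18 measured retinoic acid target and retinoid handling genes, 7 rose and 0 fell, with a median change of 0.40, against 2.42% rising, 1.13% falling and a median of 0.03 over all genes. The 7 were Cyp26a1, Dhrs3, Stra8, Tgm2, Rarg, Rarb and Nrip1, a corepressor of nuclear receptors named here after its value was seen (0.44 ± 0.12, adjusted p = 0.0236). The mean level of the list was 7.19 to 7.42 in RA arrays and 6.66 to 6.71 in untreated arrays, without overlap. This list and the other lists below were chosen with earlier results of these data known, so their shares describe the data and test nothing. The list of retinoid receptors, corepressors and silencing enzymes had 2 rises, Rarb and Rarg, and 0 falls among 22 genes, with a median of 0.00.

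**Figure D2:**
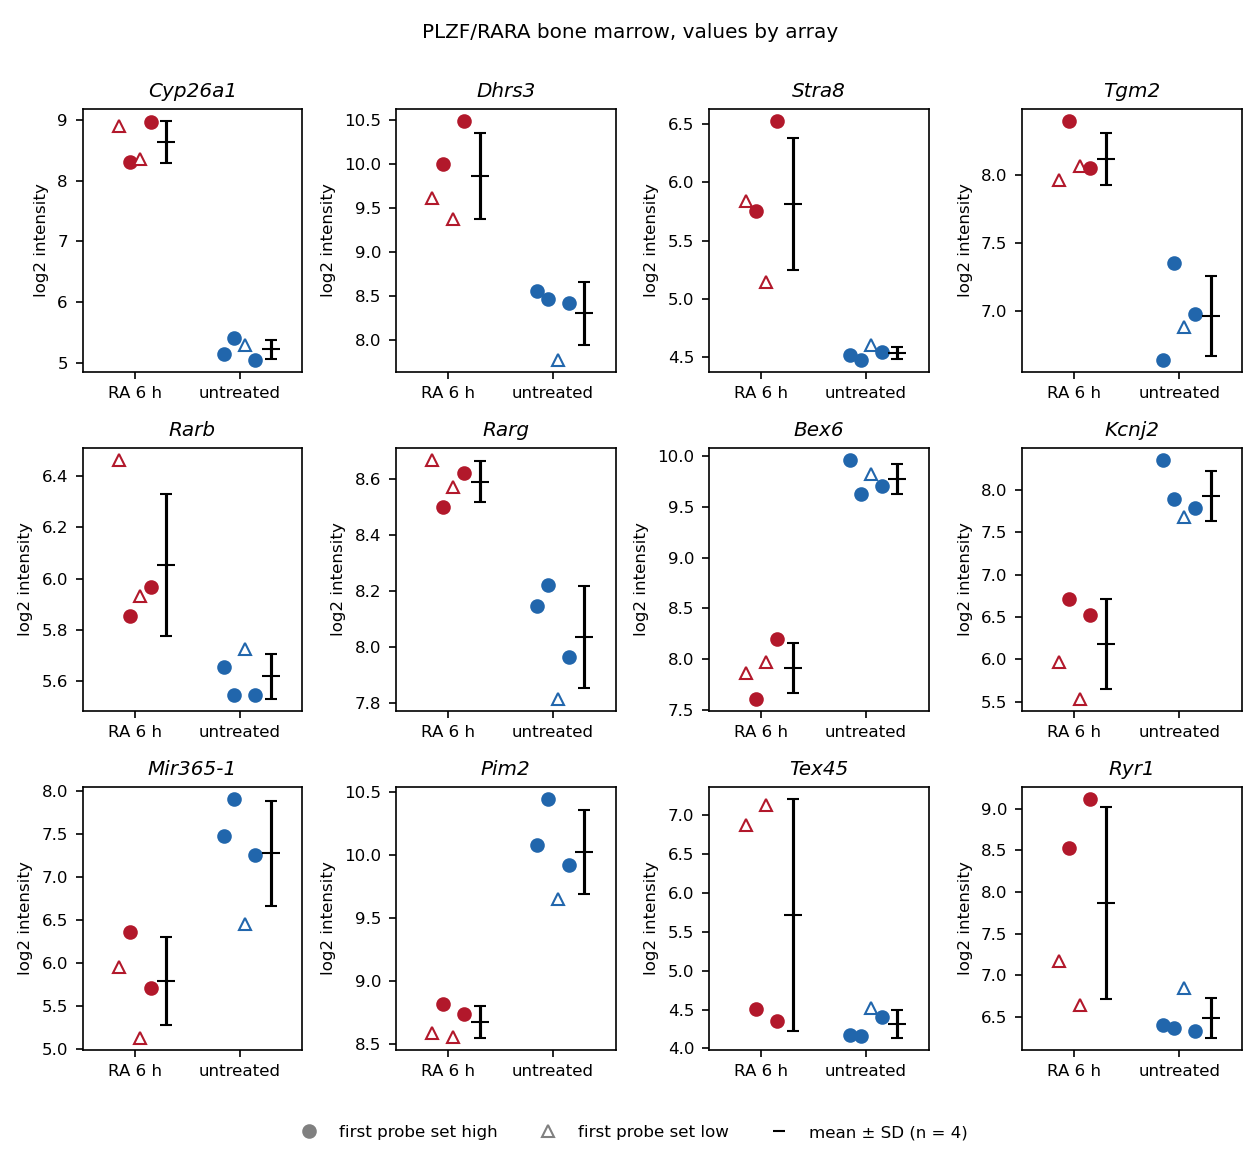
Log2 intensity of 12 genes on each array, RA 6 h on the left and untreated on the right of each panel, with filled circles for arrays in which the first probe set is high, open triangles where it is low, and the mean ± SD (n = 4) beside them. Cyp26a1, Bex6 and Pim2 separate the groups on all arrays, whereas Tex45 is high only in RA replicates 1 and 3 and Ryr1 mainly in RA replicates 2 and 4.

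RA receptors bind direct repeats of a hexamer, and 2 of the risen genes carry such a repeat upstream of a transcript start. The 250 bases before the start of each RefSeq transcript (build GRCm38.p6) were searched on both strands for 2 copies, in the same orientation and 5 bases apart, of 1 of 4 half-sites. These were AGGTCA, then AGTTCA with a changed base, and likewise GGGTCA, and last GGTTCA. The search found it in 2 of 531 promoters of genes that rose (0.377%), in 0 of 210 promoters of genes that fell, and in 11 of 19177 promoters of all genes measured (0.0574%). The 2 were those of Cyp26a1 and Rarb, the RA-degrading enzyme and the receptor described above. The stretches are shown because they hold the repeat, with the half-sites in capitals, 5′ to 3′ on the strand of the gene. The first lies at chr19:37697768-37697797 on the plus strand, upstream of the transcript start used in the table, and the repeat reads in half-site orientation on the other strand. The second lies at chr14:16575477-16575576 on the minus strand, the last 100 bases before the start used. Both lie within the annotated gene intervals (37697738 to 37701536 for Cyp26a1 and 16430839 to 17082331 for Rarb).
Cyp26a1: attaaagaTGAACTttgggTGAACTaattt
Rarb: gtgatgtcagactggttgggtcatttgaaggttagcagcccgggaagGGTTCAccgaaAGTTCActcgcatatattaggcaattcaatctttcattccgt
The repeat with 2 bases between was found in 0.188% of promoters of risen genes and 0.0626% of all, and that with 1 base between in 0 of 531 and in 0.136% of all. The single hexamer AGGTCA, which overlaps these motifs, was present in 13% of the promoters of risen genes, 9.05% of those of fallen genes and 12.4% of all. The promoters of Dhrs3, Stra8, Rarg, Irak2, Rilpl2, Fcgr3, Tinagl1, Bex6 and Pim2 held no repeat with 5 bases between in this window.

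The large rises outside the retinoid genes were of varied function. Tubb6, a beta tubulin, had 9.95, 9.16, 9.66 and 9.32 in RA arrays, against 7.56, 7.56, 7.47 and 7.53 in untreated arrays. The untreated arrays were within 0.1 log2 units of each other, and the rise was 1.99 ± 0.21 (adjusted p = 8.12e-08), close to 4-fold. Tinagl1, a matricellular protein related to cathepsin B, rose by 1.69 ± 0.16 (adjusted p = 1.23e-08), with 9.06, 9.28, 8.83 and 9.74 in RA arrays, against 7.38, 7.50, 7.64 and 7.63 in untreated arrays. Fcgr3, an activating receptor for IgG on phagocytes, rose by 1.54 ± 0.15 (adjusted p = 1.23e-08), with 11.12, 11.11, 10.74 and 11.42 in RA arrays, against 9.63, 9.63, 9.37 and 9.61 in untreated arrays. These genes were separated by more than 1 log2 unit between the closest RA and untreated arrays.

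Irak2, a kinase-like adaptor of interleukin 1 and Toll-like receptor signalling, rose by 1.65 ± 0.26 (adjusted p = 8.02e-05). Rilpl2, which takes part in the transport of proteins to the primary cilium, rose by 1.63 ± 0.15 (adjusted p = 9.19e-09). Adgre5, the leukocyte adhesion receptor CD97, rose by 1.48 ± 0.14 (adjusted p = 1.89e-08), and Treml2, a receptor of the TREM family on myeloid and lymphoid cells, by 1.47 ± 0.17 (adjusted p = 4.8e-07). Cass4, a scaffold of focal adhesions, rose by 1.45 ± 0.28 (adjusted p = 0.00112). Irf1, a transcription factor of the interferon response, rose by 1.45 ± 0.18 (adjusted p = 1.44e-06), with 1.19 within the high and 1.94 within the low arrays. For all 6 genes the RA arrays lay above every untreated array. Of the 15 largest rises, 11 had groups that did not overlap, against 365 of all 482 rises. The smallest of the 15 was that of Ddit4, a stress-induced inhibitor of mTOR signalling, at 1.36 ± 0.32 (adjusted p = 0.00961) with overlapping groups, and without RA replicate 3 it did not pass (1.15, adjusted p = 0.0526).

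Some of the large changes were carried by 1 side of the array split. Tex45, a testis-expressed gene, had 6.87, 4.50, 7.13 and 4.35 in RA arrays, against 4.17, 4.16, 4.53 and 4.40 in untreated arrays. RA replicates 1 and 3 were thus far above all others, while RA replicates 2 and 4 overlapped the untreated arrays. Its fitted change of 1.40 ± 0.32 (adjusted p = 0.00783) divides into 2.47 within the low and 0.18 within the high arrays, and it did not pass without RA replicate 1 (1.01, adjusted p = 0.0729) or without RA replicate 3 (0.92, adjusted p = 0.0604). The bitter taste receptor gene Tas2r143 was likewise highest in RA replicates 1 and 3 (7.73, 4.80, 7.08 and 5.26 in RA arrays, against 4.66 to 5.13 in untreated arrays), with 2.28 within the low and 0.29 within the high arrays. It did not pass without RA replicate 1 (0.88, adjusted p = 0.0598). Its neighbour on chromosome 6, Tas2r135, had 1.93 within the low and 0.33 within the high arrays, and it did not pass without RA replicate 1 (0.78) or 3 (1.03). Ttyh2, a tweety family membrane protein, had 11.03, 9.60, 11.02 and 9.74 in RA arrays, against 9.05 to 9.30 in untreated arrays, so that all RA arrays were higher but the low ones by far more (1.97 against 0.49).

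Ryr1, a calcium release channel, ran the other way, with 7.18, 8.53, 6.64 and 9.12 in RA arrays, against 6.40, 6.37, 6.84 and 6.33 in untreated arrays. The change was 2.46 within the high and 0.07 within the low arrays, and it did not pass without RA replicate 4 (0.96, adjusted p = 0.07). Scin, an actin-severing protein, had 6.63, 5.44, 8.10 and 5.59 in RA arrays, against 7.37 to 7.77 in untreated arrays, and its change was -2.20 within the high and 0.00 within the low arrays. It did not pass without RA replicate 2 (-0.85, adjusted p = 0.0665) or 4 (-0.90, adjusted p = 0.0715). These 6 genes were named by the size of a change, with RA or between 6 h and 12 h, and the share of the split in it was not tested. At least 1.5-fold changes on both sides were found for 111 of the 482 rises and 34 of the 225 falls, which describes genes chosen on the same 8 arrays.

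**Figure D3:**
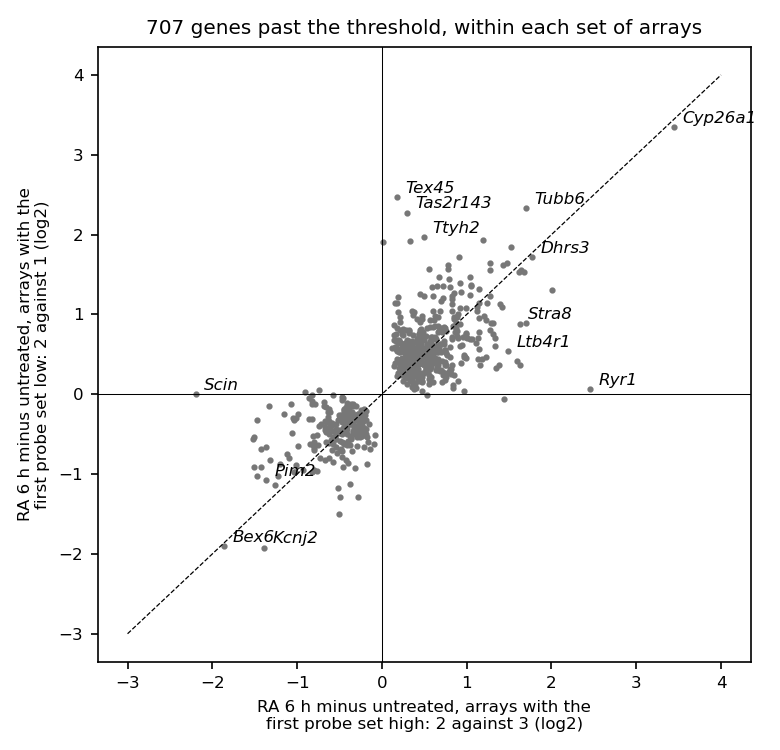
The 707 genes past the threshold, with the log2 change of RA 6 h minus untreated within the arrays with a high first probe set (2 against 3 arrays) on the x axis and within those with a low one (2 against 1) on the y axis; the dashed line marks equal change. Cyp26a1, Bex6 and Pim2 lie near the line, Tex45, Tas2r143 and Ttyh2 above it, and Ryr1 and Scin at 0.07 and 0.00 on the y axis.

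The falls were led by Bex6 and an ion channel. Bex6, a member of the brain-expressed X-linked family that in mouse lies on chromosome 16, had 7.86, 7.61, 7.97 and 8.20 in RA arrays, against 9.96, 9.62, 9.82 and 9.70 in untreated arrays. It fell by 1.86 ± 0.22 on the log2 scale (adjusted p = 5.52e-07), with -1.86 within the high and -1.90 within the low arrays. Kcnj2, an inwardly rectifying potassium channel, had 5.97, 6.71, 5.54 and 6.52 in RA arrays, against 8.35, 7.89, 7.68 and 7.79 in untreated arrays, and fell by 1.74 ± 0.26 (adjusted p = 5.4e-05). Both were lower in every RA array than in any untreated array.

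Genes of cytokine signalling and survival were among the other falls. Pim2, a serine/threonine kinase that supports survival and is induced by cytokines through STAT factors, had 8.59, 8.82, 8.56 and 8.74 in RA arrays, against 10.08, 10.44, 9.65 and 9.92 in untreated arrays. The RA arrays were nearly alike, and the fall was 1.35 ± 0.12 (adjusted p = 8.31e-09). Socs1, an inhibitor of JAK kinases that STAT factors induce as well, had 8.61, 8.82, 8.28 and 8.50 in RA arrays, against 9.12, 9.31, 9.27 and 9.57 in untreated arrays, and fell by 0.77 ± 0.12 (adjusted p = 4.88e-05). Il15, a cytokine that maintains natural killer and memory T cells, fell by 1.14 ± 0.19 (adjusted p = 0.000256). Stat3 itself rose by 0.35 ± 0.09 (adjusted p = 0.0113), but not without RA replicate 1 (0.31, adjusted p = 0.0594) or without 12 h untreated replicate 2 (0.29, adjusted p = 0.0853). Of the 21 measured cytokine receptor, JAK, STAT and Pim kinase genes, 1 rose and 2 fell (14.3% called, against 3.55% of all genes). Their median was -0.03, against 0.03 over all genes.

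The other large falls included 3 receptors. Gpr141, an orphan receptor, fell by 1.17 ± 0.17 (adjusted p = 2.13e-05), Htr1b, a serotonin receptor, by 1.11 ± 0.13 (adjusted p = 9.37e-07), and the change of F2rl2, a receptor of the protease-activated family, was -1.02 ± 0.20 (adjusted p = 0.00112). Bves, a membrane protein of cell contacts, fell by 1.05 ± 0.22 (adjusted p = 0.00279), Cdh3, P-cadherin, by 0.97 ± 0.21 (adjusted p = 0.00396), and St8sia4, which adds polysialic acid to proteins, by 1.01 ± 0.16 (adjusted p = 0.00013). Mei4, a protein of meiotic recombination, fell by 1.16 ± 0.13 (adjusted p = 2.74e-07). None of these 7 genes overlapped between the groups, as was so for 156 of all 225 falls. The change of Bves was -1.51 within the high and -0.53 within the low arrays, and that of Cdh3 -1.36 and -0.67. Tox, a nuclear factor of T cell development, fell by 0.98 ± 0.19 (adjusted p = 0.0014), although RA replicate 3 at 9.52 was within the untreated range of 9.29 to 9.66. Its change was -1.52 within the high and -0.56 within the low arrays. Angpt1, the ligand of the Tie2 receptor, fell by 1.02 ± 0.28 (adjusted p = 0.0316), with 5.27 to 6.95 in RA arrays and 6.62 to 7.69 in untreated arrays. Without RA replicate 2 or 4, either 6 h untreated array or 12 h untreated replicate 1, taken singly, its adjusted p was 0.0506 to 0.132 with changes of -1.09 to -0.78.

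A microRNA precursor was among the largest falls. The probe set of Mir365-1 had 5.96, 6.36, 5.13 and 5.72 in RA arrays, against 7.48, 7.91, 6.46 and 7.26 in untreated arrays, a fall of 1.49 ± 0.18 (adjusted p = 1.44e-06) without overlap. The array reads the precursor transcript and not the mature strands. The precursor lies on chromosome 16 at 13453840 to 13453926 on the plus strand (GRCm38.p6), and RefSeq lists these 2 mature strands, shown with the seed (bases 2 to 8) in capitals because the seed sets which messages a microRNA can pair with.
mmu-miR-365-1-5p: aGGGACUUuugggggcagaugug
mmu-miR-365-3p: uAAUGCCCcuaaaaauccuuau
The second strand has the same name in the entry of Mir365-2 on chromosome 11, whose probe set, chosen after its value was seen, had a difference of 0.02 ± 0.11 (adjusted p = 0.965). Of the 2 precursors that share the miR-365-3p strand, only Mir365-1 thus had a change past the threshold, at precursor level. Whether the Mir365-2 probe set had enough signal to show a fall was not tested.

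Over all genes, 2.42% rose, 1.13% fell and the median was 0.03, and the gene lists are set against these values. Of 19 myeloid transcription factors, 3 rose (15.8% called, against 3.55% of all genes) and 0 fell, with a median of 0.09. Cebpa, the factor that starts the granulocyte programme, had 10.80, 10.86, 10.64 and 10.93 in RA arrays, against 9.79, 9.65, 9.77 and 9.81 in untreated arrays, a rise of 1.06 ± 0.12 (adjusted p = 4.68e-07). Cebpe, which drives the late granulocyte stages, rose by 0.58 ± 0.11 (adjusted p = 0.00153). Id1, which blocks DNA binding by helix-loop-helix factors, rose by 0.79 ± 0.20 (adjusted p = 0.018), but not without RA replicate 1 (0.66, adjusted p = 0.103) or without 6 h untreated replicate 1 (0.76, adjusted p = 0.0586). Spi1, the factor PU.1, missed the threshold at 0.33 ± 0.10 (adjusted p = 0.0618), but passed in 7 of 24 alternative fits.

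Among 24 genes of secondary granules and mature neutrophils, 2 were raised and 0 fell (8.33% called), with a median of 0.19, which was 0.16 within the high and 0.51 within the low arrays. They were Ltb4r1, the leukotriene B4 receptor (0.98 ± 0.19, adjusted p = 0.00156), and Itgb2, the beta chain of the leukocyte integrins (0.79 ± 0.14, adjusted p = 0.000358). Mmp9, a gelatinase of late granules, had 10.23, 11.01, 9.82 and 10.50 in RA arrays, against 9.64, 10.42, 7.95 and 9.49 in untreated arrays. The groups overlapped, and its change of 1.01 ± 0.35 missed the threshold (adjusted p = 0.12). Without 6 h untreated replicate 2 it passed at 1.36 (adjusted p = 0.025).

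Of 7 phagocyte NADPH oxidase genes, 2 rose and 0 fell (28.6% called). These were Ncf1 (0.79 ± 0.21, adjusted p = 0.0219) and Ncf4 (0.53 ± 0.15, adjusted p = 0.0444), cytosolic subunits of the enzyme, and neither passed without RA replicate 2, RA replicate 4 or 12 h untreated replicate 1 (0.59 to 0.63 and 0.38 to 0.46). Ncf4 also did not pass without 6 h untreated replicate 1 (0.55) or 12 h untreated replicate 2 (0.51). Of 6 Fc receptor genes, 2 rose and 0 fell (33.3% called), namely Fcgr3 and Fcgr4 (1.09 ± 0.23, adjusted p = 0.00344), whereas the list's median was 0.09. Of 15 primary granule and promyelocyte genes, 2 rose and 0 fell (13.3% called), Prtn3, the protease proteinase 3 (0.72 ± 0.14, adjusted p = 0.00145), and Bpi, a bactericidal granule protein (0.53 ± 0.13, adjusted p = 0.0163). Bpi had 0.97 within the high and 0.05 within the low arrays and did not pass without RA replicate 4 (0.31), 6 h untreated replicate 2 (0.51) or 12 h untreated replicate 2 (0.51). Mpo, myeloperoxidase, the defining granule enzyme of promyelocytes, was high throughout, with 12.48 to 12.68 in RA arrays and 12.67 to 12.83 in untreated arrays (adjusted p = 0.307).

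Of 19 adhesion and homing genes, 3 rose and 0 fell (15.8% called), namely Itgb2, Itgb7, the integrin beta chain of gut homing (0.77 ± 0.17, adjusted p = 0.0055), and Pecam1, an adhesion molecule of leukocytes and endothelium (0.62 ± 0.11, adjusted p = 0.000515). Of 20 tubulin and actin cytoskeleton genes, 3 rose and 0 fell (15% called), but the median was 0.01. Besides Tubb6 these were Fmnl2, a formin that elongates actin filaments (1.14 ± 0.16, adjusted p = 1.55e-05), and Tuba8, an alpha tubulin (0.53 ± 0.15, adjusted p = 0.0411). Tuba8 did not pass without any 1 of 7 arrays (0.48 to 0.55, adjusted p = 0.0726 to 0.106), RA replicate 3 being the exception.

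Among 23 genes of Myc and ribosome production, 0 were raised and 2 fell (8.7% called, against 3.55% of all genes), with a median of -0.14, and only 3 of the 23 had a positive change. The 2 were Rrp9, a component of the U3 particle (-0.58 ± 0.13, adjusted p = 0.00756), and Nop2, a methyltransferase of ribosomal RNA (-0.41 ± 0.12, adjusted p = 0.0408), which did not pass without any 1 of 6 arrays (-0.44 to -0.36, adjusted p = 0.0563 to 0.134). Myc itself had a difference of -0.31 ± 0.11 (adjusted p = 0.161). Of 13 glycolysis genes, 0 rose and 2 fell (15.4% called), with a median of -0.13. The glucose transporter Slc2a1 fell by 0.60 ± 0.16 (adjusted p = 0.0256) and Hk2, a hexokinase, by 0.60 ± 0.16 (adjusted p = 0.0211). Slc2a1 kept its call only without RA replicate 2, RA replicate 4 or 12 h untreated replicate 1 (adjusted p = 0.0586 to 0.114 without each of the others), and Hk2 lost it without RA replicates 1 or 3 or either 6 h untreated array (-0.58 to -0.40, adjusted p = 0.0672 to 0.174). Of 17 cholesterol genes, Sc5d (0.67 ± 0.10, adjusted p = 1.97e-05) rose and Lss (-0.38 ± 0.09, adjusted p = 0.00932) fell, both enzymes of late cholesterol synthesis, and Lss did not pass without RA replicate 3 (-0.28, adjusted p = 0.0682).

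Of 35 cell cycle genes, 1 rose and 0 fell, with a median of 0.06, a share near that of all genes. It was Aurka, a mitotic kinase (0.46 ± 0.10, adjusted p = 0.00477), which missed the threshold in the 8 arrays alone, without the array sets as a block (adjusted p = 0.11) and with them (0.43, adjusted p = 0.051). Of 10 senescence and CDK inhibitor genes, Cdkn2d, the inhibitor p19 of CDK4 and CDK6, rose by 0.99 ± 0.18 (adjusted p = 0.000768), with 8.41, 8.24, 8.48 and 7.96 in RA arrays, against 7.13, 7.18, 7.32 and 7.51 in untreated arrays. Il6, at the low end of the measured levels, fell by 0.51 ± 0.11 (adjusted p = 0.00327). Of 21 p53 targets, 1 rose, the growth arrest gene Gadd45a (0.57 ± 0.13, adjusted p = 0.00716), and 2 fell, Phlda3, an inhibitor of Akt (-0.59 ± 0.11, adjusted p = 0.001), and the death receptor Tnfrsf10b (-0.56 ± 0.11, adjusted p = 0.00203). Their median was 0.01. Of 11 PML nuclear body genes, 0 rose and 0 fell, and Pml itself had a difference of 0.36 ± 0.13 (adjusted p = 0.126). Pml passed in 4 of 24 alternative fits.

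Of 21 apoptosis regulators, 2 rose and 0 fell, with a median of 0.08. They were Bak1, which permeabilizes mitochondria (0.48 ± 0.09, adjusted p = 0.000763), and Tnfsf10, the death ligand TRAIL (0.58 ± 0.17, adjusted p = 0.0448). Tnfsf10 did not pass without RA replicates 1 or 4, 6 h untreated replicate 2 or either 12 h untreated array (0.38 to 0.61, adjusted p = 0.0529 to 0.296). Of 29 interferon response genes, 1 rose, Irf1, and 0 fell, with a median of 0.05, and the 3.45% called was near the 3.55% of all genes. Of 25 chemokine and innate sensing genes, Irak2 rose and the receptor Tlr2 fell (-0.46 ± 0.11, adjusted p = 0.0129; -0.40 and adjusted p = 0.0579 without RA replicate 3, -0.42 and 0.0547 without 6 h untreated replicate 2). Of 14 coagulation and fibrinolysis genes, 0 rose and 1 fell, Plaur, the urokinase receptor (-0.46 ± 0.12, adjusted p = 0.02), which did not pass without RA replicates 3 or 4 or 12 h untreated replicate 2 (-0.44 to -0.38). Of 17 ATF4 stress response genes, Ddit4 rose and 0 fell, with a median of -0.07. Of 23 immediate early genes, Ier2 rose (0.40 ± 0.09, adjusted p = 0.00804) and Fosl2, a Fos family factor, fell (-0.50 ± 0.13, adjusted p = 0.0177), both with overlapping groups. Ier2 did not pass without RA replicate 1 or 12 h untreated replicate 2 (0.31 and 0.34), nor Fosl2 without RA replicates 1 or 3, either 6 h untreated array or 12 h untreated replicate 2 (-0.47 to -0.40). Among 21 genes of stem cells and progenitors, 0 were raised and 1 fell, Angpt1, with a median of -0.06.

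**Figure D4:**
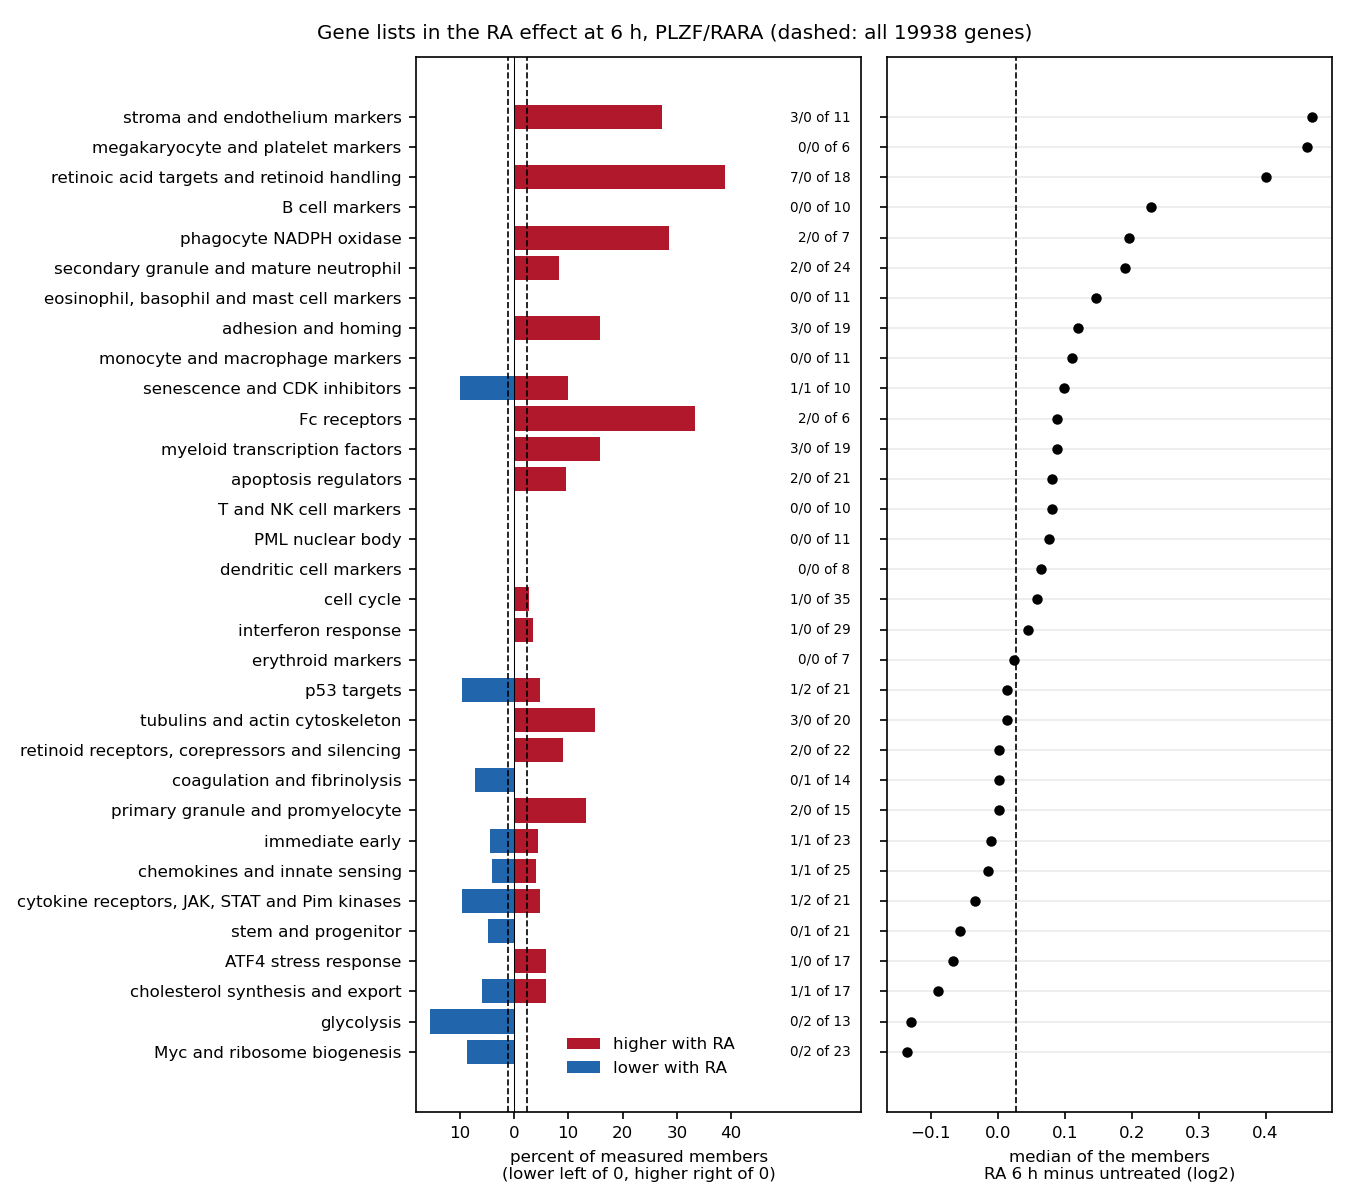
Left, the percent of the measured members of each of 32 gene lists that rose (red, right of 0) or fell (blue, left of 0) with RA at 6 h, with the counts up/down at the edge; right, the median log2 change of the list. Dashed lines give all 19938 genes (2.42% up, 1.13% down, median 0.03), and the retinoic acid targets have the largest share of rises, 7 of 18. The lists were chosen with earlier results of these data known.

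Markers of other marrow cells were followed beside these groups. Of 11 stroma and endothelium markers, 3 rose and 0 fell, all 11 had a positive change, and the median was 0.47. Their mean level was 7.10 to 7.61 in RA arrays and 6.45 to 7.12 in untreated arrays. The 3 were Lepr, a marker of perivascular stroma (0.84 ± 0.23, adjusted p = 0.0348), and the endothelial genes Cdh5 (0.83 ± 0.23, adjusted p = 0.0358) and Emcn (1.07 ± 0.31, adjusted p = 0.0432). Each of them did not pass without any 1 of 6 arrays (adjusted p = 0.0502 to 0.195, changes of 0.66 to 1.15), and the list's median was 0.75 against the 12 h untreated arrays alone. The part of these cells in the rises of Pecam1 and other genes was not tested.

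Of 6 megakaryocyte and platelet markers, 0 passed, with a median of 0.46. Of 10 B cell, 10 T and NK cell, 11 monocyte and macrophage, 8 dendritic cell, 11 eosinophil, basophil and mast cell, and 7 erythroid markers, 0 passed (limma), with medians of 0.23, 0.08, 0.11, 0.06, 0.15 and 0.02. B cell markers had a mean level of 6.32 to 6.87 in RA arrays and 6.12 to 6.82 in untreated arrays, and erythroid markers one of 5.98 to 6.62 in RA arrays and 6.03 to 6.41 in untreated arrays.

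The same 6 h of RA was then compared with its effect in transgenic PML/RARA leukaemia (8 RA 6 h arrays and 8 untreated arrays of both times, 2 batches, background WT), which shares no array with the PLZF/RARA comparison. In PML/RARA 1801 genes rose and 2339 fell, or 9.03% and 11.7% of all genes, and 4.25% of all genes changed by at least 1.5-fold. Both fusions had 339 rises in common, which were 70.3% of the PLZF/RARA rises and 18.8% of the PML/RARA rises. They had 111 falls in common, 49.3% of the PLZF/RARA falls and 4.75% of the PML/RARA falls, and 11 genes passed in opposite directions. The groups differ in number, so the counts do not compare the strength of the responses. The difference in RA effect, PLZF/RARA minus PML/RARA, was tested in the same fit and passed for 631 genes (3.16%), 309 with a positive and 322 with a negative difference, and 1.78% of all genes differed by at least 1.5-fold. Centring each array on its median gave 214 positive and 380 negative differences. The count was 403 without RA replicate 1, 416 without RA replicate 3, 1102 without RA replicate 4, 399 without 6 h untreated replicate 1 and 412 without 6 h untreated replicate 2.

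Part of the response had no difference past the threshold. The RA effect on Cyp26a1 differed between the fusions by 0.31 ± 0.73 (adjusted p = 0.91), and those on Tubb6, Rilpl2 and Bex6 by 0.14 ± 0.25, 0.00 ± 0.19 and 0.12 ± 0.27. Among the 15 largest rises in PLZF/RARA, 13 also rose in PML/RARA, and among the 15 largest falls 8 also fell there. The difference passed for 3 of these rises and 7 of these falls, which were chosen for their size in PLZF/RARA and so start from a selected value.

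Several genes changed in PLZF/RARA where PML/RARA had no change past the threshold. Stra8 had 4.35 ± 0.12 in RA arrays and 4.33 ± 0.12 in untreated arrays of PML/RARA (SD, n = 8 each), and its RA effect was higher in PLZF/RARA by 1.26 ± 0.26 (adjusted p = 0.00349). Mir365-1 had 5.03 ± 0.10 in RA arrays and 5.01 ± 0.09 in untreated arrays of PML/RARA, with a difference in effect of -1.51 ± 0.22 (adjusted p = 7.79e-05). In PML/RARA it was thus already low without RA, below the PLZF/RARA mean after RA (5.79 ± 0.51, SD, n = 4). The same order held for Mei4 (-1.17 ± 0.16, adjusted p = 2.61e-05), with PML/RARA at 4.97 ± 0.16 with and 4.96 ± 0.16 without RA. It also held for Htr1b (-1.10 ± 0.16, adjusted p = 7.44e-05) and for Tox (-0.97 ± 0.23, adjusted p = 0.0127), with untreated PML/RARA at 6.41 ± 0.15 and 6.51 ± 0.20. F2rl2 had an effect of 0.36 ± 0.14 in PML/RARA (adjusted p = 0.0588) and a difference of -1.39 ± 0.24 (adjusted p = 0.000445). Socs1 had -0.02 ± 0.08 in PML/RARA and a difference of -0.75 ± 0.14 (adjusted p = 0.00134). Pim2 fell in both and by 0.71 ± 0.15 more in PLZF/RARA (adjusted p = 0.00446). Angpt1 (-1.27 ± 0.34, adjusted p = 0.032), Tex45 (1.44 ± 0.39, adjusted p = 0.035) and Tas2r143 (1.43 ± 0.38, adjusted p = 0.0311) passed as well, but each lost its call without single arrays. For Angpt1 these were RA replicates 2 or 4, 6 h untreated replicate 2 or 12 h untreated replicate 1 (-1.30 to -1.03). For Tex45 and Tas2r143 they were RA replicates 1 or 3, either 6 h untreated array or 12 h untreated replicate 2 (0.96 to 1.46 for Tex45 and 0.92 to 1.45 for Tas2r143).

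Opposite movement was rare. Pecam1 rose in PLZF/RARA, while in PML/RARA it fell by 0.55 ± 0.08 (adjusted p = 1.58e-06), a difference of 1.17 ± 0.14 (adjusted p = 3.24e-06). Plaur fell in PLZF/RARA and rose in PML/RARA by 0.65 ± 0.08 (adjusted p = 2.99e-07), a difference of -1.11 ± 0.15 (adjusted p = 2.12e-05). Tinagl1 rose in both, by 1.25 ± 0.20 more in PLZF/RARA (adjusted p = 0.000157), while the rise of Fmnl2 was 0.86 ± 0.20 above its PML/RARA value (adjusted p = 0.00965), which was 0.28 ± 0.11 (adjusted p = 0.0781).

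The largest differences the other way were genes that RA raised in PML/RARA. Suox, sulfite oxidase, had 8.12, 8.30, 7.94 and 8.18 in RA arrays, against 8.36, 8.11, 7.58 and 8.14 in untreated arrays of PLZF/RARA, and these overlapped. In PML/RARA it had 9.78 ± 0.70 with and 6.83 ± 0.18 without RA, and the difference in effect was -2.86 ± 0.46 (adjusted p = 0.000177). F3, tissue factor, stayed between 5.61 and 5.80 in RA arrays and 5.28 and 5.81 in untreated arrays of PLZF/RARA, with a difference of -2.51 ± 0.58 (adjusted p = 0.0105). Ccl6, a chemokine of myeloid cells, was 10.94 ± 0.13 with and 10.60 ± 0.23 without RA in PLZF/RARA and 11.03 ± 0.38 with and 8.60 ± 0.28 without RA in PML/RARA, so that untreated PLZF/RARA arrays were near the treated PML/RARA level (difference in effect -2.09 ± 0.26, adjusted p = 6.02e-06). Nr4a1, an orphan nuclear receptor, had a difference of -1.80 ± 0.26 (adjusted p = 6.17e-05).

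Myeloid genes and Rarg rose in both fusions, and 6 of those named rose by less in PLZF/RARA. Fcgr4 had a difference of -2.10 ± 0.28 (adjusted p = 2.48e-05), Ncf1 of -1.67 ± 0.25 (adjusted p = 9.65e-05), Ltb4r1 of -1.14 ± 0.24 (adjusted p = 0.0036), Cebpe of -0.97 ± 0.14 (adjusted p = 4.65e-05), Rarg of -0.90 ± 0.19 (adjusted p = 0.00502) and Itgb2 of -0.81 ± 0.17 (adjusted p = 0.00392). That of Cebpa was -0.15 ± 0.15 and did not pass (adjusted p = 0.702). Kit, the stem cell factor receptor, had 10.43, 10.51, 10.74 and 10.36 in RA arrays, against 10.68, 10.72, 10.67 and 10.79 in untreated arrays of PLZF/RARA (adjusted p = 0.699), and the difference in effect was 1.16 ± 0.22 (adjusted p = 0.00153). Jag1, a Notch ligand, had a difference of 1.46 ± 0.18 (adjusted p = 6.02e-06), with -1.21 ± 0.10 in PML/RARA and 0.25 ± 0.15 in PLZF/RARA. Among 35 cell cycle genes, 3 rose and 11 fell in PML/RARA, while 1 rose and 0 fell in PLZF/RARA. Their list had the most positive differences, 6 of 35 with 0 negative, against 1.55% and 1.62% of all genes. Among the 6, Mcm6, a subunit of the replicative helicase, had 0.56 ± 0.13 (adjusted p = 0.0123), and Mcm3, Mcm4, Mcm7, E2f1 and Cdk6, named after their values were seen, had 0.49, 0.56, 0.61, 0.54 and 0.42. Of the 24 neutrophil genes 2 differences were positive and 5 negative. Of the 23 genes of Myc and ribosome production, of which 18 fell in PML/RARA, 0 differences passed (limma).

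**Figure D5:**
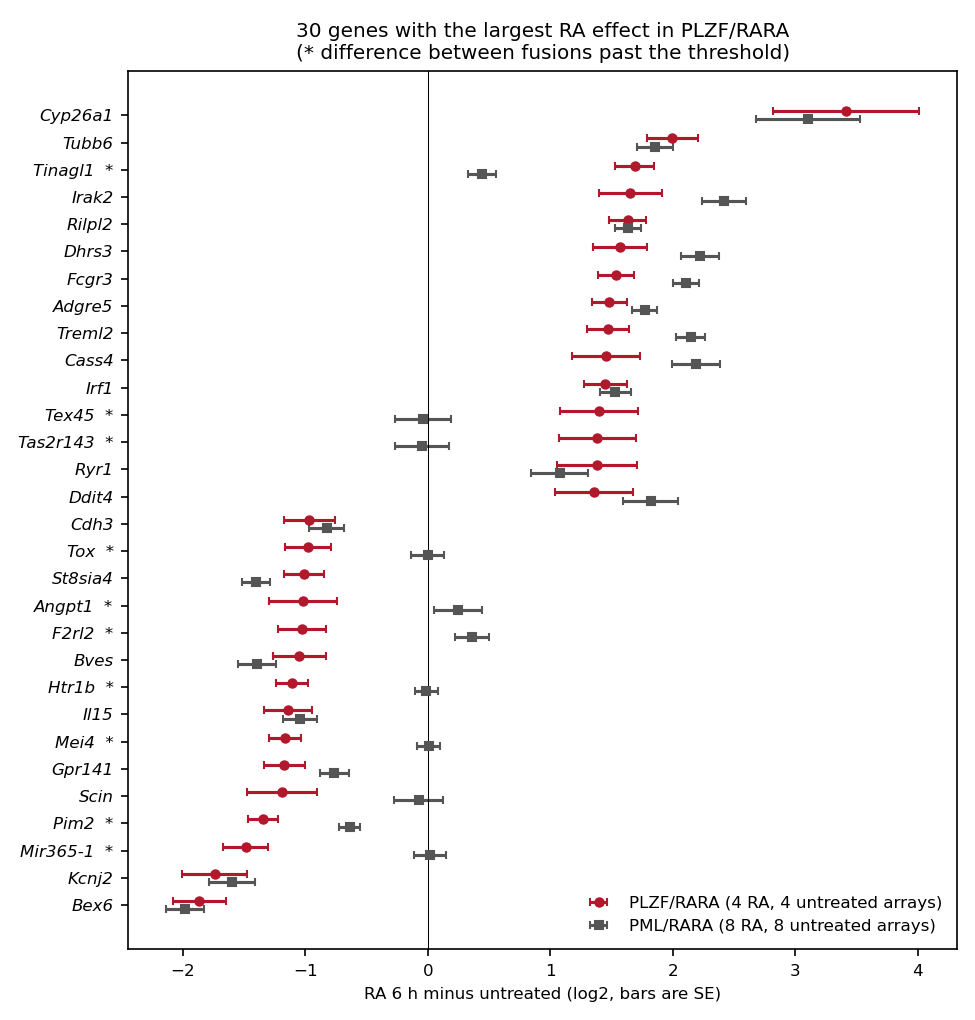
The log2 RA effect at 6 h with its SE for the 15 largest rises and 15 largest falls of PLZF/RARA, in red for PLZF/RARA (4 RA and 4 untreated arrays) and in grey squares for PML/RARA (8 and 8); an asterisk marks a difference past adjusted p 0.05. Cyp26a1, Tubb6, Rilpl2 and Bex6 coincide within their errors, while Mir365-1, Mei4, Htr1b and Tox sit near 0 in PML/RARA.

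A last comparison set the RA arrays at 6 h against the 4 RA arrays of PLZF/RARA at 12 h, also batch 1. It passed for 248 genes (1.24%), 130 higher and 118 lower at 6 h, and after another quantile normalization for 133 higher and 198 lower. Of the 482 genes that had risen at 6 h, 457 had no difference past the threshold, and of the 225 that had fallen, 210. Cyp26a1 had 8.76, 9.94, 8.06 and 9.80 at 12 h, within reach of its 6 h values (difference -0.51 ± 0.60, adjusted p = 0.796). A fit of these 8 RA arrays alone passed for 4 genes, 2 higher and 2 lower at 6 h. The 6 h RA arrays were 2 high and 2 low in the array split, and the 12 h RA arrays 1 high and 3 low. Counts were sensitive to single arrays, with 142 genes without 6 h RA replicate 1, 555 without replicate 2, 147 without replicate 3, 151 without 12 h RA replicate 1 and 95 without 12 h RA replicate 3. With the level of the first probe set as a covariate, a fit chosen after seeing the data, 620 genes passed.

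Of 29 interferon genes, 18 were lower at 6 h than at 12 h, with a median of -0.75, against 0.592% lower and a median of 0.04 over all genes. Rtp4, a receptor-transporting protein induced by interferon, had 5.87, 5.53, 4.92 and 5.49 at 6 h, against 5.86, 8.24, 8.35 and 9.24 at 12 h, a difference of -2.47 ± 0.39 (adjusted p = 0.000593). At 12 h replicate 1 was at the 6 h level and the other 3 were more than 2 log2 units higher. Oas2, which makes the activator of RNase L, had -2.33 ± 0.39 (adjusted p = 0.00125) and its relative Oasl2 -2.23 ± 0.34 (adjusted p = 0.000406). The RA effect at 6 h on these 3 genes did not pass (Rtp4 -0.27, Oas2 -0.52, Oasl2 -0.39), and among untreated arrays 6 h replicate 2 stood out, with 7.06 for Rtp4 against 4.83 to 5.67 in the other 3. Cd34, a surface protein of progenitors, was higher at 6 h, with 11.75, 11.30, 11.68 and 11.62, against 10.54, 10.43, 10.02 and 10.37 at 12 h (1.24 ± 0.16, adjusted p = 3.36e-05). At 6 h its difference from untreated arrays was -0.34 ± 0.16 (adjusted p = 0.316), although all 4 RA arrays were lower. Adgrg1, an adhesion receptor of progenitors, was higher at 6 h by 0.74 ± 0.13 (adjusted p = 0.00247). Spns2, a sphingosine 1-phosphate exporter, rose at 6 h by 1.06 ± 0.12 (adjusted p = 4.6e-07) and was lower again at 12 h (difference 0.86 ± 0.12, adjusted p = 0.000135), whereas Fmnl2 was lower at 6 h than at 12 h (-0.83 ± 0.16, adjusted p = 0.00408). In the fit of the 8 RA arrays alone Cd34 passed (adjusted p = 0.0118), while Rtp4, Oas2, Oasl2, Adgrg1, Spns2 and Fmnl2 kept their size but not their call (adjusted p = 0.144 to 0.376).

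Pooling the untreated arrays was checked by their time labels. Between the 2 arrays labelled 12 h and the 2 labelled 6 h, 1 gene passed (limma), Tm4sf19, a tetraspan membrane protein, at 0.78 (adjusted p = 0.0497), and 1555 genes had an unadjusted p below 0.05. With 2 arrays on each side and with 3 of the 4 in the high set, this comparison has little power. Against the 6 h untreated arrays alone 439 genes passed, and against the 12 h untreated arrays alone 371.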

How the data were processed

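Total RNA of bone marrow was hybridized to Affymetrix Mouse Gene 1.0 ST arrays. The deposited values are log2 intensities, made with RMA and affy per the submitters' processing notes; their versions are not stated there, nor is a correction for batch. In all there were 35556 probe sets, of which 21789 are annotated with a single gene symbol. Each gene took the brightest of its probe sets by the mean of 72 arrays, giving 19938 genes, and none was dropped for low signal. Limma 3.58.1 (R 4.3.3) was fitted to the 36 transgenic arrays with 1 coefficient for the pooled untreated PLZF/RARA arrays, 1 for each other group and an additive batch term, then eBayes (28 residual degrees of freedom). Tests were two-sided, and p was adjusted by Benjamini-Hochberg over all genes; the PML/RARA side averaged its 6 h and 12 h untreated groups. The number of arrays limits the precision, with a median residual SD of 0.15 log2 units. The fit was tested on simulated data. Named genes are the 15 largest rises and falls of the RA effect, 8 in each direction of the other contrasts (clone names, histones and olfactory or vomeronasal receptors left out), up to 5 per list, and a panel. The members and the 32 lists were chosen with earlier results of these data known, and 44 list entries were not analysed here. Sequences are from RefSeq tables of build GRCm38.p6. Alternatives changed the arrays, controls, normalization, prior, probe sets and filter. Those using the first probe set were chosen after seeing the data.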

Additional observations from a re-analysis of the deposited data

Results flagged for a closer look

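Among 176 groups of 4 arrays examined, 12 held 1 array far from the other 3, and chance alone sets 1 in 20 groups apart. That rate assumes 4 arrays of 1 kind, which the array split described above does not grant. In 12 h untreated replicate 1, Dhrs3 was at 7.77 (the other 3 at 8.42 to 8.55), Rara at 8.83 (9.24 to 9.32), Fcgr3 at 9.37 (9.61 to 9.63) and Spi1 at 11.48 (11.87 to 11.95). In the same array Nop2 was at 10.17 (10.39 to 10.42), Myc at 12.01 (12.34 to 12.36) and Ryr1 at 6.84 (6.33 to 6.40). This is the only untreated array with a low first probe set, and the part of the split in these values was not tested. In 12 h untreated replicate 2, Stat3 was at 10.45 (10.71 to 10.76) and Gadd45a at 7.44 (7.11 to 7.15). Gpr141 was at 9.60 in 6 h untreated replicate 1 (9.53 to 9.54), Tlr2 at 7.54 in 6 h untreated replicate 2 (7.37 to 7.38) and Irak2 at 9.17 in RA replicate 2 (9.58 to 9.62).

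The RA effect at 6 h differed between PLZF/RARA and PML/RARA for 631 genes by the test of the difference itself (limma, adjusted p below 0.05). The following values are PLZF/RARA minus PML/RARA. Among genes of the retinoid response the difference was 1.26 for Stra8 and -0.90 for Rarg, and for Pml it was -0.76. Among myeloid genes it was -2.10 for Fcgr4, -2.09 for Ccl6, -1.82 for Cd200r1, -1.67 for Ncf1, -1.14 for Ltb4r1, -0.97 for Cebpe and -0.81 for Itgb2. It was -2.86 for Suox, -2.51 for F3, -2.06 for Slc6a9, -1.80 for Nr4a1, -1.11 for Plaur, -0.78 for Slc2a1, -0.58 for Lss and -0.53 for Il6. It was 1.53 for Colec12, 1.46 for Jag1, 1.43 for Tspoap1, 1.37 for Rpp25, 1.35 for Cntnap1, 1.35 for Sox18, 1.17 for Pecam1, 1.16 for Kit and 0.86 for Fmnl2. Rpp25 did not pass without RA replicate 3 (1.19), Slc2a1 without RA replicates 1 or 3 or 6 h untreated replicate 2 (-0.74 to -0.68), and Il6 without 12 h untreated replicate 2 (-0.49). Among the largest changes of PLZF/RARA it was 1.44 for Tex45, 1.43 for Tas2r143, 1.25 for Tinagl1, -1.51 for Mir365-1, -1.39 for F2rl2, -1.27 for Angpt1, -1.17 for Mei4, -1.10 for Htr1b, -0.97 for Tox, -0.75 for Socs1 and -0.71 for Pim2.

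Outside the genes, 52 of the 12146 probe sets with no entry in the annotation passed in the RA effect (limma, adjusted p below 0.05).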

How the results depend on the processing

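No paired analysis was made, because every sample title carries the same replicate number, so the numbers pair no arrays. The titles also carry sample codes, whose meaning is not given and which were not used in any fit. They run in sequence over the 6 h arrays, untreated and RA, while those of the 12 h untreated arrays lie close to codes of 12 h RA arrays. Whether the pooled controls thus come from separate series was not tested. For the RA effect, 17 of 24 alternatives gave a count within 1.5 times of 707. The others were the fit of the 8 arrays alone with 167 genes (600 with the array sets by the first probe set as a block), 6 h untreated arrays alone with 439, 12 h untreated arrays alone with 371, the high arrays with 456, the low arrays with 202 and 2 single arrays left out, and leaving out 1 array gave 450 to 973. For the difference between fusions (631), all 72 arrays gave 382, 6 h untreated arrays alone 302, 12 h untreated arrays alone 218 and batch 1 alone 368, and leaving out 1 array gave 399 to 1102. For 6 h against 12 h (248), the 8 RA arrays alone gave 4, batch 1 alone 163 and the first probe set as a covariate 620, and leaving out 1 array gave 95 to 555. For the untreated arrays by time label (1), all 72 arrays gave 2, the covariate 4, and batch 1 alone, centring on the median and a trended robust prior 0 each, and leaving out 1 array gave 0 to 33. Fits of few arrays have fewer residual degrees of freedom by construction. The cause of the changes in count was not tested. Of 73 named genes that passed in the RA effect, 17 passed in every alternative and 56 missed the threshold in at least 1; in the difference between fusions the counts were 20 and 18 of 38, and in 6 h against 12 h 1 and 19 of 20. No named call reversed its sign. The set block ended 14 named calls of the RA effect (adjusted p = 0.051 to 0.18), those of Rarb, Tex45, Tas2r143, Tas2r135, Scin, Bpi, Stat3, Tnfsf10, Hk2, Nop2, Aurka, Lss, Ier2 and Fosl2, and the 8 arrays alone ended 36.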
